A study of Mus musculus with 7 samples.

Results

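Surfactant and alveolar type 2 genes were followed as 10 transcripts chosen by symbol, namely Sftpa1, Sftpb, Sftpc, Sftpd, Abca3, Lamp3, Napsa, Nkx2-1, Slc34a2 and Lpcat1, out of 22180 genes that the arrays measured with a probe set of 1 symbol. Each of the 10 had a single such probe set, and each passed the filter on dim genes. The members were matched by symbol, with no threshold on a measured value, but the list was drawn up with earlier results of these data known. These transcripts are taken as lung epithelial, while the samples were sorted for endothelium. The members' values are therefore read as epithelial RNA carried in a sorted endothelial sample. Lamp3 and Lpcat1 are expressed elsewhere too, and the cells behind each RNA were not tested. In such bulk RNA, fewer epithelial cells and less RNA per epithelial cell cannot be told apart.

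Alveolar type 2 cells make surfactant, a film of phospholipid and protein that lowers surface tension and keeps alveoli open at the first breath. The lipid is packed into lamellar bodies, lysosome-related organelles, together with the small hydrophobic proteins SP-B and SP-C, and is secreted into the airspace. SP-A and SP-D are collectins, soluble lectins of innate defence that also take part in ordering and recycling surfactant. In the fetal lung this programme is switched on late in gestation under NKX2-1 and its partner transcription factors.

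The samples were 3 labelled wild-type and 4 labelled Sash1-knockout (Sash1-/-), littermates on a C57BL/6 background taken at E18.5, near term. Embryos were genotyped by PCR, and viable lung cells positive for CD31 and negative for CD45 and CD326 (the epithelial antigen EpCAM) were sorted and frozen. The labels name no Cre, floxed allele or cell type restriction of the deletion. RNA of integrity number above 7 was amplified with the Nugen Pico WTA kit and hybridised to 1 Affymetrix array per sample. By its title the study concerns a need for endothelial Sash1 in surfactant production by way of nitric oxide. The labels do not say whether each sample was a separate embryo or a pool, so p-values measure only the spread between these arrays, which may be technical.

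Labels were checked first. Sash1 measured 9.02, 8.73 and 8.33 on the wild-type-labelled arrays and 8.29, 8.21, 8.68 and 8.13 on the knockout-labelled ones, so that the groups overlapped, and its difference of -0.37 had an adjusted p of 0.971 in limma. For this gene wild-type replicate 3 lay below knockout replicate 3, against their labels. Where in Sash1 the deletion lies is not given in the sources used here, and a probe set outside it checks nothing. Groups are therefore named by label, and each direction rests on those labels. The endothelial markers Pecam1 and Cdh5 spanned 11.03 to 11.21 and 11.83 to 11.97 over the 7 arrays. Array medians over all 41345 probe sets were 3.86 to 4.03 and array maxima 13.49 to 13.70, all as log2 values. Levels of different probe sets are not comparable, and comparisons below are between arrays for the same probe set.

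The 250 bases before the start of Sftpa1 (chr14:41131538-41131787, plus strand), Sftpb (chr6:72304360-72304609, plus strand), Lamp3 (chr16:19706366-19706615, minus strand) and Slc34a2 (chr5:53049103-53049352, plus strand) are shown because these 4 members lay furthest below the other arrays on 1 array, labelled knockout 4. Abca3 (chr17:24351773-24352022, plus strand), also lowest there but only 0.30 log2 units below the next lowest array, is shown beside them. These windows were chosen by the values on that array, so they test no link between motif and signal. The sequences are from RefSeq on GRCm38.p6, written 5′ to 3′ on the gene's strand, and capitals mark matches on either strand to CTCAAG (NKX2-1), TGTTTNC (forkhead FOXA factors) or TTGCNNAA (C/EBP).
Sftpa1: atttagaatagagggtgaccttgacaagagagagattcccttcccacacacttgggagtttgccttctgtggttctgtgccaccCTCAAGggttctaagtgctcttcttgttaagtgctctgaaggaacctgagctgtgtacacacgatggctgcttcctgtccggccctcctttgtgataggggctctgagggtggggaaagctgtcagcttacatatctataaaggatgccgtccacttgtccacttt
Sftpb: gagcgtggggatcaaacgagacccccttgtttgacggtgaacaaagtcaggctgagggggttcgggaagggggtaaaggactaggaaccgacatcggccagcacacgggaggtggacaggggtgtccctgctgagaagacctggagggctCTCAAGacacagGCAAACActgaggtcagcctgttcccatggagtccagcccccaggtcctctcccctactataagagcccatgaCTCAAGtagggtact
Lamp3: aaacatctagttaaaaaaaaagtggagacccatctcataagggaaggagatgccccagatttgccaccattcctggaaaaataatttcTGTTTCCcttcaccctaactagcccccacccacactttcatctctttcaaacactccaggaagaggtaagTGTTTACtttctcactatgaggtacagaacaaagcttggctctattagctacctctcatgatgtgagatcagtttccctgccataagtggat
Slc34a2: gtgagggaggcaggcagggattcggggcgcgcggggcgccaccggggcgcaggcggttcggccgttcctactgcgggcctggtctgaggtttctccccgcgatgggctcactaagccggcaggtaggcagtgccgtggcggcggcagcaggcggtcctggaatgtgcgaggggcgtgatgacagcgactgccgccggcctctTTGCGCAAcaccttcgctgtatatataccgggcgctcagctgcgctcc
Abca3: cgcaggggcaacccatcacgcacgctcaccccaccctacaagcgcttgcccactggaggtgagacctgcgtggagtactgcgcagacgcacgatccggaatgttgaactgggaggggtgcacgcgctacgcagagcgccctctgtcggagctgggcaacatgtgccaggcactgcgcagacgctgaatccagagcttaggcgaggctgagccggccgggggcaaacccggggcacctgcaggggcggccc

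RefSeq windows were found for 7 of the 10 members: these 5, Nkx2-1 and Lpcat1. CTCAAG stood in 2 of the 7, at 166 to 161 bases before the start in Sftpa1 and at 100 to 95 and 15 to 10 in Sftpb, against 13.3% of 32851 windows of the same length. TGTTTNC stood in 2, on the minus strand at 88 to 82 in Sftpb and on the plus strand at 162 to 156 and 92 to 86 in Lamp3, against 17.8% of windows. TTGCNNAA stood in 1, at 48 to 41 bases before the start of Slc34a2, where it reads TTGCGCAA on both strands, against 9.6% of windows. The ETS core CGGAAG, searched in the same way, had no match in the 7 and stood in 13.6% of all windows. None of these letters overlapped another motif's match. The windows of Abca3, Nkx2-1 and Lpcat1 held none of the 4 motifs. These are matches of letters and not measured binding sites.

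The secreted surfactant proteins were measured on every array. Sftpc encodes SP-C, a lung-specific hydrophobic peptide and the most widely used type 2 marker. Its log2 values, in replicate order as throughout, were 11.97, 11.90 and 11.92 with the wild-type label and 12.00, 11.86, 11.97 and 10.20 with the knockout label. Outside the array labelled knockout 4 the gene held within 0.14 log2 units, and that array lay 1.74 below the mean of the other 6, which is a 3.33-fold lower signal. The SD over those 6 arrays was 0.05, against 0.53 to 0.69 for Sftpa1, Sftpb, Sftpd, Lamp3, Napsa and Slc34a2 on the same arrays, and whether the signal of this probe set was compressed near its upper end was not tested. Its small spread, its fold and the narrow intervals that follow describe this probe set's signal and may understate differences in RNA. The labels differed by -0.42 (95% confidence interval -1.45 to 0.61), and without the array labelled knockout 4 by 0.01 (-0.18 to 0.21).

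Sftpb encodes SP-B, without which lamellar bodies do not form properly and newborns cannot breathe. It measured 10.01, 9.26 and 8.64 on the wild-type-labelled arrays and 9.63, 8.85, 9.74 and 6.13 on the knockout-labelled ones. Here the 6 other arrays were spread over 1.37 log2 units, and the array labelled knockout 4 was lower than all of them, 9.35-fold below their mean. Its difference between labels was -0.72 (SE 0.88, 95% confidence interval -2.78 to 1.35), or 0.10 (-0.89 to 1.10) without that array.

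Sftpa1, encoding the collectin SP-A, measured 9.38, 8.48 and 7.78 on the wild-type-labelled arrays and 8.66, 8.02, 8.81 and 4.70 on the knockout-labelled ones. Its value on the array labelled knockout 4 was 14.1-fold below the mean of the other 6, and is not shown to be above background. The difference between labels was -1.0 (SE 1.01, 95% confidence interval -3.37 to 1.37), or -0.05 (-1.12 to 1.02) without that array.

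Sftpd, encoding the other lung collectin SP-D, was at 7.47, 6.42 and 5.64 with the wild-type label and at 6.43, 6.13, 7.24 and 4.95 with the knockout label. The array labelled knockout 4 was again lowest, 3.04-fold below the mean of the other 6, but the other arrays were themselves spread over 1.83 log2 units. The labels differed by -0.32 (-1.74 to 1.09), or 0.09 (-1.19 to 1.37) without that array.

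Lamellar body and processing genes came next. Lamp3 encodes DC-LAMP, a lysosomal membrane glycoprotein of lamellar bodies that mature dendritic cells also make. It measured 8.37, 7.74 and 6.84 on the wild-type-labelled arrays and 7.97, 7.33, 8.31 and 2.97 on the knockout-labelled ones. This was the member furthest apart on the array labelled knockout 4, at 4.79 log2 units below the mean of the other 6. Its value there was under the limit of 2.98 used to leave out dim genes and is not shown to be above background. The 27.7-fold lower signal of Lamp3 there is therefore a rough figure and not a bound. By measured value, 3 of the 16635 tested genes, itself included, lay that far below. The mean difference of -1.0 (95% confidence interval -3.98 to 1.97) became 0.22 (-0.87 to 1.31) without that array.

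Napsa encodes napsin A, an aspartic protease that cuts the SP-B and SP-C precursors. With the wild-type label it was at 8.80, 8.25 and 6.96, and with the knockout label at 8.11, 7.50, 8.56 and 6.02. The array labelled knockout 4 was lowest, 4.03-fold below the mean of the other 6, and the array labelled wild-type 3 was next. The labels differed by -0.46 (-2.03 to 1.12), or 0.05 (-1.23 to 1.33) without the array labelled knockout 4.

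Abca3 encodes the transporter that moves phospholipid into lamellar bodies. It measured 7.39, 7.15 and 7.26 on the wild-type-labelled arrays and 7.36, 7.43, 7.23 and 6.85 on the knockout-labelled ones. Apart from the array labelled knockout 4, at 1.37-fold below the mean of the rest, all values lay within 0.28 log2 units. The labels differed by -0.05 (-0.41 to 0.31), a bound tighter than for the other lamellar body members. It bounds the signal of this probe set, and which cells that RNA came from was not tested.

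Slc34a2 encodes the sodium and phosphate cotransporter NaPi-IIb, on the apical face of type 2 cells. It measured 10.19, 9.51 and 8.85 with the wild-type label and 9.83, 9.14, 10.23 and 5.29 with the knockout label. The array labelled knockout 4 stood 20.2-fold below the mean of the other 6. The labels differed by -0.89 (-3.61 to 1.82), or 0.22 (-0.81 to 1.25) without it.

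Lpcat1 encodes the acyltransferase that remodels phosphatidylcholine to the dipalmitoyl form, and is also expressed outside the lung. Its values were 8.08, 7.54 and 7.83 on the wild-type-labelled arrays and 7.87, 7.88, 8.01 and 7.38 on the knockout-labelled ones, a difference of -0.03 (-0.47 to 0.41). The array labelled knockout 4 was lowest, but only 0.16 below the array labelled wild-type 2.

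Nkx2-1 encodes the homeodomain factor of lung epithelium, present in type 1, type 2 and airway cells. It measured 6.24, 6.16 and 5.58 with the wild-type label and 6.55, 5.80, 6.38 and 5.90 with the knockout label. This was the member for which the array labelled knockout 4 was not the lowest: the arrays labelled wild-type 3 and knockout 2 lay below it. The labels differed by 0.16 (-0.40 to 0.73), or -0.04 without the array labelled wild-type 3.

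**Figure D1:**
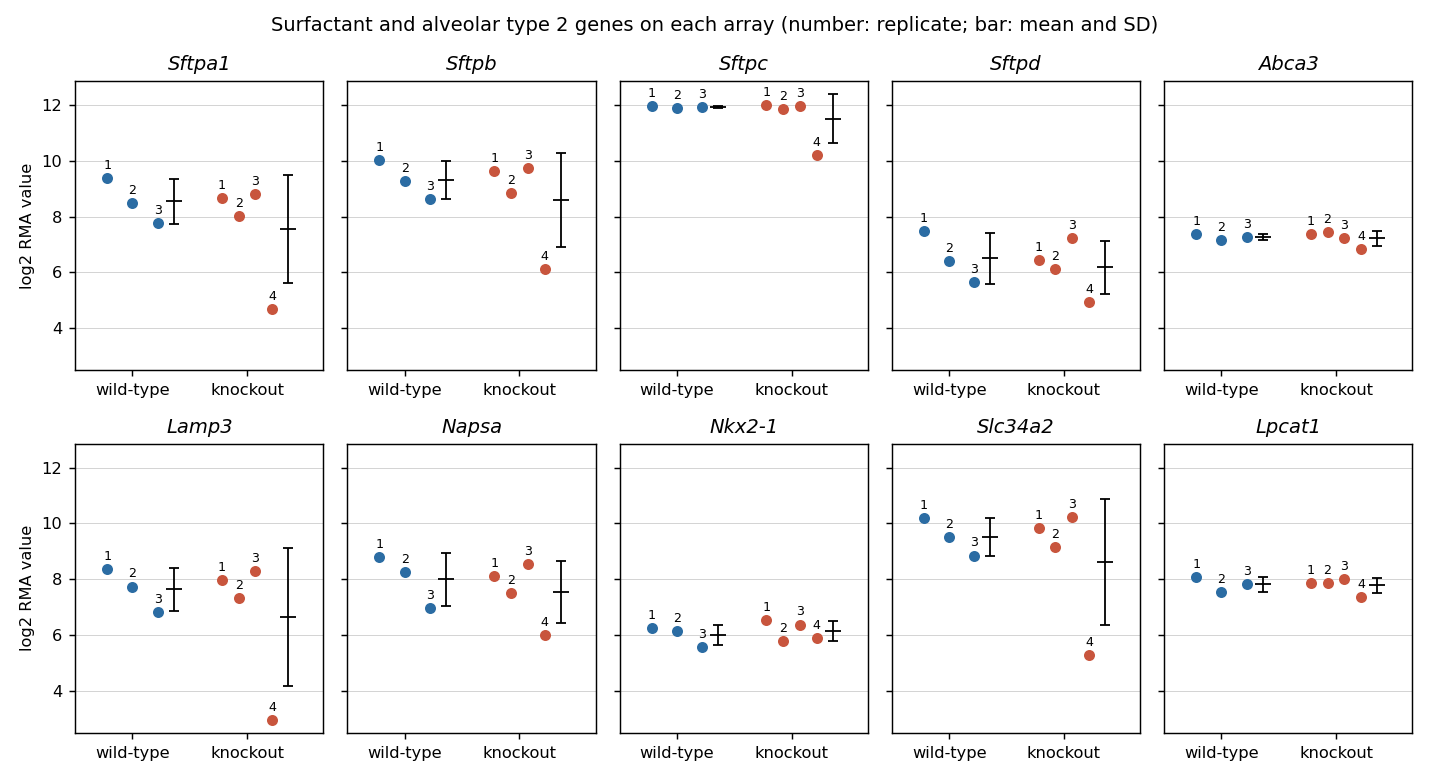
Log2 RMA value (y axis) of each of the 10 genes on the 3 wild-type-labelled (blue) and 4 knockout-labelled (red) arrays, with replicate numbers beside the points and the mean and SD of each group as black bars. Replicate 4 of the knockout label is the lowest point for 9 of the 10 genes, by most for Lamp3 (2.97) and Slc34a2 (5.29), and the labels overlap in every panel.

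No member was called different between labels by limma. Of the 10, 0 passed an adjusted p of 0.05, against 0% of all 16635 tested genes, and their adjusted p-values ran from 0.971 to 1. At an unadjusted p under 0.05 the members again numbered 0, against 3.34% of tested genes (556, of which 396 were higher with the knockout label). The labels overlapped for all 10 members, while they did not overlap for 2.45% of tested genes. Exact permutation tests of the single genes, two-sided over 35 splits of the arrays with a smallest possible p of 0.0286, gave p from 0.571 to 0.914. Of the members, 9 had lower means with the knockout label and Nkx2-1 a higher one, with a median difference of -0.44 against 0.02 over all tested genes.

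The sign of that median rested on 1 array. Without the array labelled knockout 4 the median difference of the members was 0.10, and 9 of 10 were higher with the knockout label, Sftpa1 being the exception at -0.05. In that fit 0 members passed, against 0% of tested genes, and 0 had an unadjusted p under 0.05, against 2.37%. The confidence intervals there ran from -0.18 to 0.21 for Sftpc and -0.18 to 0.33 for Abca3, but from -1.12 to 1.02 for Sftpa1, -1.23 to 1.33 for Napsa and -1.19 to 1.37 for Sftpd, so that for the latter 3 genes the arrays could not resolve a difference of 1 log2 unit either way. Other arrays moved the median too: it was -0.21 when wild-type replicate 1 was left out -0.87 when wild-type replicate 3 was left out and -0.73 when knockout replicate 3 was left out. Without both replicates 3, whose Sash1 values went against their labels, it was -1.21, and 0 members passed.

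**Figure D2:**
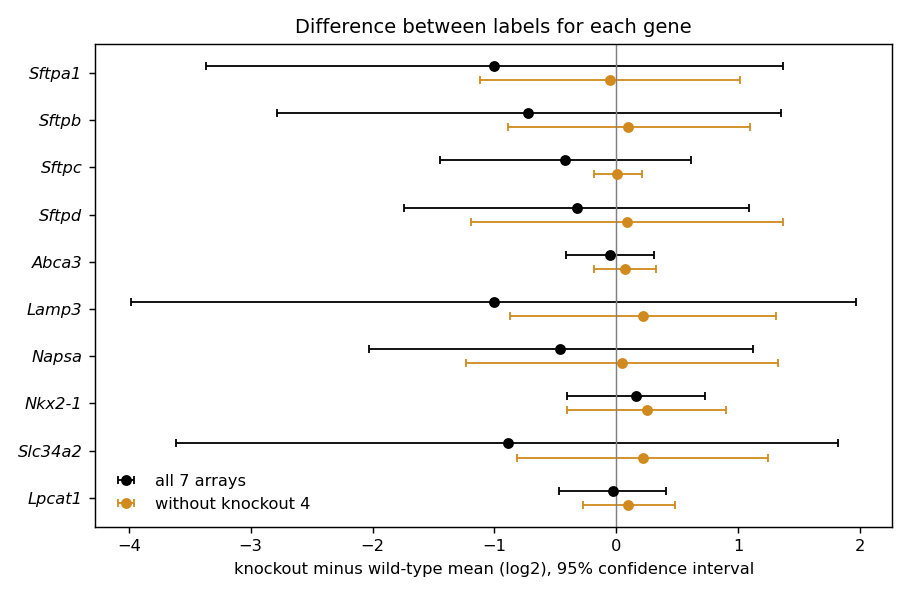
Knockout-labelled minus wild-type-labelled mean on the log2 scale (x axis) for each gene, with the 95% confidence interval from limma, over all 7 arrays (black) and without the array labelled knockout 4 (orange). Every interval contains 0, and the values without that array lie between -0.05 and 0.25.

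Among the 6 other arrays the members varied together in part. The array labelled wild-type 1 was the highest of all 7 for 6 members, and the array labelled wild-type 3 was the lowest of those 6 for 7 members. Mean values over the 10 members were 8.79, 8.24 and 7.73 with the wild-type label and 8.44, 7.99, 8.65 and 6.04 with the knockout label. The pan-epithelial list (adhesion, keratin, claudin and epithelial regulator genes, 21 tested) averaged 6.05, 5.79 and 5.03 against 5.78, 5.39, 5.89 and 5.29. Both were highest on the array labelled wild-type 1, but the pan-epithelial mean was lowest on the array labelled wild-type 3 and not on the array labelled knockout 4. The part of epithelial content in the members' values was not tested beyond the fit below.

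Setting each member against the pan-epithelial mean of its own array narrowed the spread for several. The range over the 6 other arrays went from 1.60 to 0.70 for Sftpa1, from 1.37 to 0.50 for Sftpb, from 1.53 to 0.61 for Lamp3, from 1.38 to 0.62 for Slc34a2 and from 1.84 to 0.82 for Napsa. It widened from 0.14 to 0.97 for Sftpc, from 0.28 to 0.89 for Abca3 and from 0.54 to 1.06 for Lpcat1, which had varied little on their own. The size and sign of such a difference between probe sets carry no meaning, and it is compared between arrays only. For Lamp3 it was 1.81 to 2.42 on the 6 other arrays and -2.32 on the array labelled knockout 4. For Sftpa1 it was 2.63 to 3.33 and then -0.59, while for Nkx2-1 it was 0.61, inside the range of 0.19 to 0.77 on the others. With the pan-epithelial mean as a covariate in limma, the difference was -0.90 (95% confidence interval -2.82 to 1.01) for Sftpa1, -0.63 (-2.27 to 1.01) for Sftpb, -0.40 (-1.42 to 0.62) for Sftpc and 0.19 (-0.11 to 0.50) for Nkx2-1, and 0 of the 10 members passed. The pan-epithelial list was dim in part: Grhl2, Elf3 and Elf5 averaged 3.68, 3.74 and 4.05 on the 6 other arrays, near the array medians. Others were brighter, such as Cdh1 at 7.65 and Krt18 at 7.86, and Cldn18 is also in the type 1 list. How far the dim genes could fall with epithelial content was not tested, so distances to this mean do not measure type 2 RNA apart from that content.

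**Figure D3:**
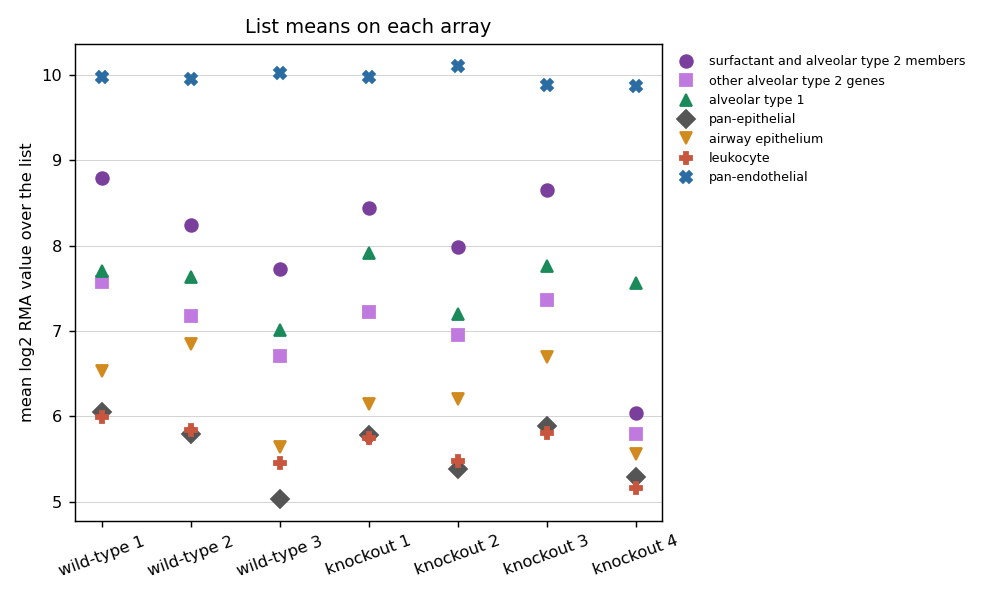
Mean log2 RMA value over the tested genes of 7 lists (y axis) on each array (x axis, by label and replicate number; the order carries no meaning). The members and the other type 2 genes are lowest on the array labelled knockout 4, at 6.04 and 5.80, whereas type 1 and pan-epithelial means are lowest on the array labelled wild-type 3, at 7.01 and 5.03, and the endothelial mean stays within 9.87 to 10.11.

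The array labelled knockout 4 was examined further after these values were seen, as a description of 1 array with no test. It lay a median of 1.87 below the mean of the other 6 arrays over the 10 members, against 0.00 over all tested genes. It was the lowest array for 9 of 10 members and for 15.3% of all tested genes. Distances on this array are to the mean of the other 6, here and in later paragraphs. Of 16635 genes, 32 (0.192%) lay 2 log2 units or more below there, among them Lamp3, Slc34a2, Sftpa1, Sftpb and Napsa, and 8 others came from the list of other type 2 genes. A further 8 genes, in no list, lay 2 log2 units or more above the other arrays there. That count was 1 to 9 on the other arrays. Among the 8, chosen after their values were seen, Snord15a lay above by 4.40, Tmem108 by 2.71, Rbp7 by 2.70 and Xist by 2.16. Xist, the RNA of X inactivation in female cells, ranged from 2.66 to 10.71 on the other 6 arrays. Fetal sex was not tested, nor was its part in the members' values. The count of genes 2 log2 units or more below was 0 to 5 on each of the other arrays, with 0 members on any of them.

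Other type 2 genes, from a list of 29 of which 28 were tested, followed the members on this array only in part. S100g, a calcium-binding protein gene, measured 9.61, 8.62 and 7.98 with the wild-type label and 8.79, 8.16, 9.32 and 4.14 with the knockout label. Cxcl15, the lung chemokine lungkine, was at 10.53, 10.23 and 9.65 and at 10.42, 9.70, 10.48 and 5.98. Scd1, a fatty acid desaturase, was at 8.44, 7.85 and 6.77 and at 7.63, 7.18, 7.31 and 3.78. The lysozyme gene Lyz1 was 6.10 below the mean of the other arrays at 4.02, although signals of Lyz1 and Lyz2, near-identical paralogs, may be mixed by their probes. The values of S100g, Scd1 and Lyz1 on this array are not shown to be above background. In contrast, some genes of the list lay within the range of the other arrays. Examples, picked after their values were seen, were the cathepsin gene Ctsh (8.01 against 7.72 to 8.90) and the enzyme gene Elovl1 (9.41 against 9.23 to 9.71). Which cells the RNA of such genes came from was not tested, and they enter the list median below. Muc1 was lowest on this array, at 6.86 against 6.89 to 8.17, and lay 0.82 below the mean of the other 6. Over the list the median was 0.74 below the other arrays and 17 of 28 genes were lowest on this array. Between labels, 22 of 28 had negative and 6 positive differences, with a median of -0.14 (0.03 without the array labelled knockout 4), and 0 passed.

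For phospholipid synthesis genes, which all cells need and type 2 cells use heavily, limma called no difference between labels, as for all tested genes. That does not show equal levels, with Scd1 at -1.21 (95% confidence interval -3.46 to 1.04). Of 23 tested, 15 had negative and 8 positive differences, the median was -0.04 and 0 passed. Pcyt1a, the rate-limiting enzyme of phosphatidylcholine synthesis, measured 7.24, 7.13 and 6.82 with the wild-type label and 6.73, 6.87, 6.89 and 6.78 with the knockout label, a difference of -0.25 (95% confidence interval -0.52 to 0.03, adjusted p = 0.971 in limma). Lpin2, a phosphatidate phosphatase, differed by -0.38 (-1.01 to 0.25), and Srebf1, a lipogenic transcription factor, by 0.11 (-0.16 to 0.39). On the array labelled knockout 4 the list median was -0.16 relative to the other arrays, and Scd1 was the only gene of this list to lie 2 log2 units or more below.

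Regulators of surfactant genes gave 11 negative and 7 positive differences among 18 tested, a median of -0.03 and 0 passing. Etv5, an ETS factor that maintains type 2 identity, measured 8.01, 7.59 and 7.40 with the wild-type label and 7.89, 7.34, 7.96 and 6.16 with the knockout label, thus 1.54 lower on the array labelled knockout 4 than the mean of the others. Cebpa was at 5.47, 5.25 and 4.53 and at 5.09, 5.17, 5.09 and 4.44, so that its value there was close to that on the array labelled wild-type 3. Foxa2, present across lung epithelium, was at 5.60, 5.39 and 4.81 and at 5.36, 4.80, 5.46 and 5.52, and on the array labelled knockout 4 it was above all others except the array labelled wild-type 1. Sox9, a distal tip progenitor gene that fibroblasts and cartilage also express, had the widest difference of this list at 1.13 (-0.64 to 2.90), with 5.57, 4.96 and 7.21 against 8.08, 7.34, 5.34 and 7.41. Stat3 differed by -0.29 (-0.61 to 0.02).

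Genes of surfactant clearance and sensing, several of them expressed by endothelium or macrophages, gave 5 positive and 4 negative differences among 9 tested. Adgrf5, the receptor through which lung cells limit the surfactant pool, differed by 0.03 (-0.25 to 0.31). Pparg, the nuclear receptor of lipid handling, measured 5.34, 5.69 and 5.71 with the wild-type label and 6.30, 6.19, 5.93 and 6.09 with the knockout label. These groups did not overlap and the difference was 0.55 (0.23 to 0.86), but its adjusted p was 0.971 in limma. Atp13a2, a lysosomal transporter gene, differed by 0.23 (0.02 to 0.45) and the cytokine receptor subunit gene Csf2rb by -0.21 (-0.57 to 0.14). Of this list 0 passed.

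Markers of other epithelial cells divided on the array labelled knockout 4. Airway genes were mostly lowest there, as the type 2 genes were, though several by little, and type 1 genes mostly were not. The type 1 gene Ager, the receptor RAGE of flat gas-exchange cells, measured 10.13, 10.04 and 9.15 with the wild-type label and 10.40, 9.50, 9.99 and 9.99 with the knockout label. Aqp5, a water channel, was at 8.11, 7.80 and 5.89 and at 7.14, 6.17, 7.63 and 6.70. Akap5, a kinase anchoring protein gene, had the largest difference of the type 1 list, with 6.36, 6.56 and 7.15 against 8.06, 7.39, 7.39 and 7.68. Its labels did not overlap and the difference was 0.94 (95% confidence interval 0.38 to 1.5), but its adjusted p was 0.971 in limma. Clic5, chosen after its values were seen, also did not overlap, with a difference of 0.23 (0.02 to 0.44). Among the wild-type-labelled arrays, Akap5 and Clic5 were highest on replicate 3 (7.15 and 10.31), where the type 1 list mean was lowest at 7.01. Whether the RNA of Akap5 and Clic5 came from type 1 cells was not tested. None of these 4 genes was lowest on the array labelled knockout 4, which lay a median of 0.08 above the other 6 over 12 type 1 genes and was lowest for 1 of them, Rtkn2. Of 11 airway genes tested, 8 (72.7%) were lowest on this array, against 60.7% of the other type 2 genes. These 8 airway genes lay 0.06 to 1.06 below the next lowest array, against 0.16 to 3.87 for the 9 members lowest there. The airway list mean was lowest on this array too, at 5.56, close to the 5.64 on the array labelled wild-type 3. Airway genes lay a median of 0.79 and at most 1.80 (the ciliary dynein gene Dynlrb2, chosen after its value was seen) below the other 6 arrays, so that 0 of them were 2 log2 units or more below. Examples were the secretoglobin gene Scgb3a1 at 6.32 against 6.38 to 9.33, the club cell gene Scgb1a1 at 8.12 against 8.21 to 9.80 and the ciliated cell gene Foxj1 at 4.84 against 4.90 to 5.17. Epcam, which encodes the antigen used to remove epithelium, was at 5.31, 5.14 and 4.65 and at 5.14, 5.14, 5.19 and 4.06, while Cdh1 was at 8.11, 8.01 and 6.92 and at 7.47, 7.36, 8.03 and 6.88. Both were lowest on the array labelled knockout 4, though Cdh1 by little relative to the array labelled wild-type 3. Means over the type 1 list spanned 7.01 to 7.71 with the wild-type label and 7.20 to 7.92 with the knockout label, and those over the airway list 5.64 to 6.85 and 5.56 to 6.70. Between labels 0 of the 12 type 1, 11 airway and 21 pan-epithelial genes passed.

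Markers of other cell types were in part lower with the members on this array. Leukocyte genes (20 tested) lay a median of 0.41 lower there, and 9 of 20 were lowest on it. Lyz2, made by macrophages and type 2 cells, was at 7.22 against 9.31 to 10.15 on the other arrays, Tyrobp at 6.42 against 7.38 to 8.05, Cd68 at 4.74 against 5.57 to 6.23, and Ptprc at 3.51 against 4.45 to 4.85. Other genes of the list were not low: the neutrophil genes S100a8 and S100a9 were at 10.32 and 9.87, which is 0.49 and 0.30 above the mean of the other arrays, and the macrophage genes Mrc1, Csf1r and C1qa differed from it by 0.18, -0.01 and -0.04. Leukocyte list means were 5.99, 5.84 and 5.46 with the wild-type label and 5.75, 5.48, 5.81 and 5.16 with the knockout label. The CD45 gate should remove such cells, and log2 RMA values have no true zero at which a marker could be called absent. Fibroblast and mural genes (16 tested) lay a median of 0.26 lower and endothelial genes (15 tested) 0.10 lower. The 32 genes far below on the array labelled knockout 4 also held 19 outside all lists, among them, chosen after their values were seen, the macrophage and epithelial gene Retnla (3.53 against 8.67 to 9.86), the cathepsin gene Ctss (3.93 against 6.75 to 7.09), the heat shock gene Hspa1a (4.32 against 6.78 to 9.26) and the immediate early gene Fos (4.39 against 5.86 to 9.10). The part of these cells, or of RNA quality, in the members' values was not tested.

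**Figure D4:**
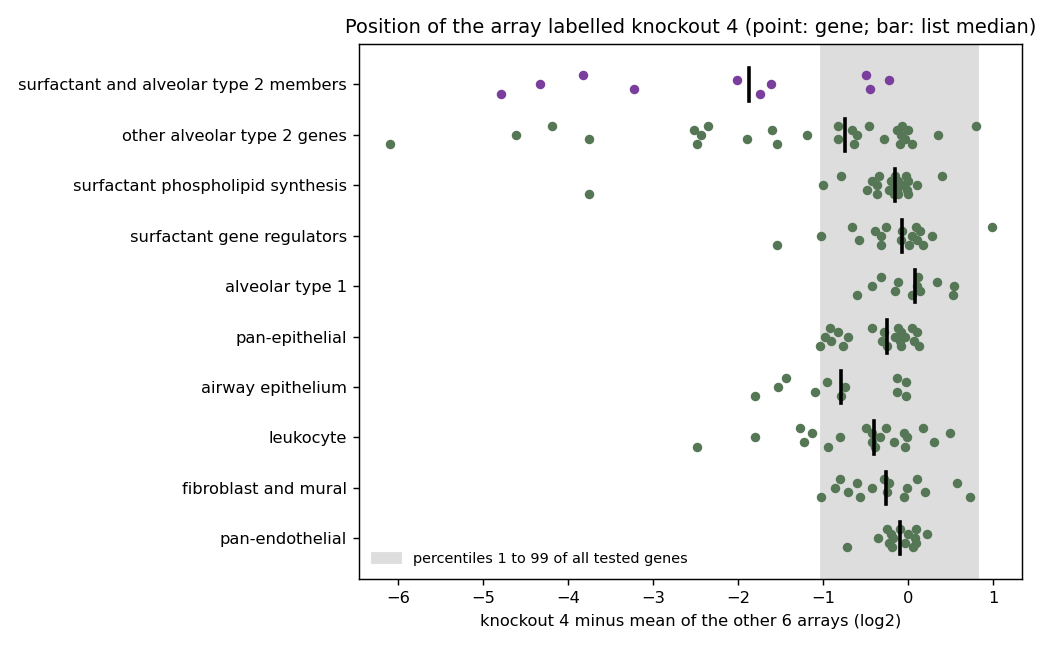
Value on the array labelled knockout 4 minus the mean of the other 6 arrays, in log2 units (x axis), for each tested gene of 10 lists (rows; purple for the members, bars for list medians), with percentiles 1 to 99 of all tested genes (-1.02 to 0.82) in grey. Of the members, 7 lie to the left of the grey band, while the type 1 and endothelial genes lie inside it.

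By profile over the 7 arrays, the 10 non-member genes most like the members' mean were Hc, S100g, Etv5, Moxd1, Tyrobp, Lyz1, Rnf186, Alox5ap, Lilrb4a and Cxcl15, with Pearson r from 0.980 to 0.996 as a measure of likeness. Of these, 5 (Hc, S100g, Etv5, Lyz1 and Cxcl15) belong to the list of other type 2 genes, Tyrobp to the leukocyte list, and 4 to no list. Hc, which encodes complement C5, measured 7.61, 6.90 and 6.18 with the wild-type label and 7.07, 6.57, 7.15 and 4.39 with the knockout label. Alox5ap, the 5-lipoxygenase activating protein gene, and the myeloid receptor gene Lilrb4a were at 6.42 and 3.63 on the array labelled knockout 4, against lows of 7.07 and 5.77 on the others. All 10 profiles share the low array labelled knockout 4, which weighs heavily in an r over 7 arrays.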

How the data were processed

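RNA of 3 wild-type-labelled and 4 Sash1-knockout-labelled sorted endothelial samples was measured on 1-colour Affymetrix arrays. The authors deposited 1 log2 value per probe set and array, made with RMA (background correction, quantile normalization, probe set summary) in Affymetrix Expression Console 1.1, per the submitters' processing notes. That they are log2 was inferred from their range, 0.32 to 13.70. The genome build is not given in the sources used here, and scanner files were not analysed here. Arrays have no read depth, and their number limits the precision.

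Gene symbols came from GEO's platform annotation, with 99.2% of gene identifiers found in a RefSeq table of GRCm38.p6. Of 41345 probe sets, 23521 had 1 symbol (22180 genes), 1814 had several and 16010 had none listed. Each gene was represented by its probe set of highest mean over the 7 arrays, and the dimmest 25% (5545 genes, mean log2 value under 2.98) were left out, leaving 16635. Labels were compared with limma 3.58.1 (lmFit, eBayes) in R 4.3.3, genotype as the only term, two-sided, Benjamini-Hochberg over all tested genes, called under 0.05. The script was tested on simulated data. Members and lists were chosen with earlier results of these data known. Genes eligible to be named were all members, the 10 genes of most similar profile, the 3 largest differences of each of 10 other lists, and fixed markers. The 18 alternatives and a threshold of 0.1 are described in the closing section.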

Additional observations from a re-analysis of the deposited data

Results flagged for a closer look

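Among 59 named genes, 7 had 1 knockout-labelled array far from the other 3, with a gap over the group's range above Dixon's critical value for 4 samples. About 1 in 20 groups would pass by chance, and 15.8% of all tested genes passed the same limit. On the array labelled knockout 4, Sftpc was at 10.20 against 11.86 to 12.00 on the other knockout-labelled arrays, Scd1 at 3.78 against 7.18 to 7.63, Cebpa at 4.44 against 5.09 to 5.17, Epcam at 4.06 against 5.14 to 5.19, Ptprc at 3.51 against 4.57 to 4.72 and Tyrobp at 6.42 against 7.62 to 7.80. Csf2rb was at 4.44 on the array labelled knockout 3 against 4.78 to 4.79. The other 9 members did not pass this limit.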

How the results depend on the processing

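Under all 18 refits 0 members and 0 genes passed, and also at a threshold of 0.1, with the members' smallest adjusted p in limma between 0.564 and 1. Exact permutation of single members gave 0 under 0.05, also with quantile normalization and median centring. The unadjusted count of 556 genes was 1310 with array weights, 225 with the replicate block, 367 with a random replicate block, 865 with the pan-epithelial covariate, 295 when wild-type replicate 2 was left out, 1314 when wild-type replicate 3 was, and 1779 when replicate 3 of both labels was. The members' median difference of -0.44 ranged from -0.87 to 0.10 when arrays were left out in turn, was 0.10 with the replicate block and -0.56 with a random replicate block, and was -1.21 without replicate 3 of both labels. Of the members' values under these alternatives, 156 kept their sign and 24 turned. With the replicate number as a block, which leaves the array labelled knockout 4 without a partner and so out of the difference, Sftpb was 0.10, Sftpc 0.01, Sftpd 0.09, Abca3 0.07, Lamp3 0.22, Napsa 0.05, Slc34a2 0.22 and Lpcat1 0.10. Median centring gave Abca3 0.01 and Lpcat1 0.03, array weights Lpcat1 0.06, and Nkx2-1 was -0.12 without replicate 3 of both labels. Leaving out arrays in turn, differences ranged from -1.10 to 0.10 for Sftpb, -0.59 to 0.01 for Sftpc, -0.76 to 0.16 for Sftpd, -0.12 to 0.07 for Abca3, -1.56 to 0.22 for Lamp3, -0.98 to 0.05 for Napsa, -0.04 to 0.29 for Nkx2-1, -1.43 to 0.22 for Slc34a2 and -0.17 to 0.10 for Lpcat1. Deviations from the group means had r of -0.18, -0.20 and -0.55 between same-numbered arrays, and from -0.18 to 0.49 between differently numbered ones. The replicate numbers were not taken as pairs. These values cannot settle the pairing, since Sash1 went against the labels of both replicates 3. Signal against background could not be judged from these values, which limits what the low value of Lamp3 means. The same limit holds on the array labelled knockout 4, of median 3.95, for Scd1 (3.78), Lyz1 (4.02), S100g (4.14) and Sftpa1 (4.70).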
